A study of Mus musculus with 8 samples.

Results

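The genes described here are the cytochrome P450 enzymes of the Cyp1, Cyp2, Cyp3a and Cyp4 families and the conjugating enzymes of the Ugt1a, Ugt2, Gsta, Gstm and Sult families that were measured in mouse intestine and in intestinal organoids. They were chosen by the start of their symbol and by a total of at least 50 unique molecular identifiers (UMIs, 1 per captured RNA molecule) in at least 1 of the 8 libraries of the series. Of the 32285 features in the files, 138 matched the symbol rule and 65 passed the UMI minimum. By family these were 2 of 8 matching Cyp1 rows, 22 of 48 Cyp2, 4 of 9 Cyp3a, 8 of 22 Cyp4, 4 of 9 Ugt1a, 5 of 10 Ugt2, 4 of 4 Gsta, 7 of 7 Gstm and 9 of 21 Sult rows. Just inside the minimum were Cyp2c38 with 62 UMIs, Cyp3a59 with 64, Gsta2 with 64, Cyp2c23 with 66 and Cyp1a1 with 75 in their highest library. Just outside it were Cyp4f39 with 39, Cyp4x1 with 37, Cyp2c70 with 37, Ugt1a2 with 31 and Cyp4f15 with 29. The UMI totals of all 8 libraries thus chose the members, and the counts of members below are descriptions of these libraries.

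These enzymes clear foreign and some endogenous small molecules. In the first phase a cytochrome P450, fed with electrons by the reductase Por, adds an oxygen to the substrate. In the second phase glucuronosyltransferases (Ugt), glutathione S-transferases (Gst) and sulfotransferases (Sult) attach a polar group, and efflux transporters export the product. The intestinal epithelium is the first tissue that swallowed drugs, plant compounds and bacterial products meet. The receptors Ahr, Nr1i2 (PXR) and Nr1i3 (CAR) and the oxidative stress factor Nfe2l2 are known to induce many of these genes. Several members also work on the body's own lipids: Cyp4 enzymes hydroxylate fatty acids and eicosanoids, Cyp2r1 hydroxylates vitamin D, and Sult2b1 sulfates cholesterol and other sterols.

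All mice were C57BL/6, and for the sorting experiments mice with the Lgr5-eGFP-ires-CreERT2 allele on that background were used as well. Organoids at passage 1 were grown alone (control) or in coculture, with 16 wells of each kind pooled before 100000 epithelial cells of each were sorted. The coculture partner is not named in the labels. Digested small and large intestine were each sorted into 1 single-cell library that was enriched for LGR5+ stem cells and for lymphatic endothelial cells positive for CD31, PDPN and LYVE1, so cell shares follow the sort. Visium spatial libraries, in which each spot of a slide captures RNA from the tissue above it, came from cryosections, 10 µm thick, of intestinal tubes, 2 technical duplicates for each of small and large intestine. Neither the gut segment nor the number of animals is given in the labels. The series addresses signals between lymphatics and intestinal stem cells. The members were not the stated subject of that design.

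Each single-cell group was 1 library, and the 2 sections per tissue were technical duplicates of it, so no test between conditions is possible and none is given. Levels are UMIs of a gene per 1000000 UMIs of the library or group of cells (CPM). Intervals are 95% exact counting intervals, which cover counting error only and not the spread between animals or cultures. UMIs count molecules and are not scaled by gene length. Deposited totals ranged from 24356162 to 43833127 UMIs in the sections and from 46236011 to 142499881 in the single-cell libraries. In the sorted small intestine 6086 of 8842 barcodes were removed by the filter on detected genes and mitochondrial share, which left 2695 cells against 5882 in the large intestine. The 2 sorted libraries shared 25 cell barcodes and the 2 organoid libraries shared 0. In a section, fewer cells of a type and less RNA per cell cannot be told apart. The Cyp2c, Cyp2d, Cyp3a, Gsta, Gstm and Ugt2b genes have close paralogs and the Ugt1a genes share their 3′ exons, so values of single genes in these groups are uncertain. Of the members, 18 stayed under 50 UMIs in every section and 2 in every single-cell library.

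Summed over all members, the enzymes held nearly the same share of RNA in both tissues, while their make-up differed. The summed level was 1919 and 2038 CPM in small intestine, and large intestinal sections had 2145 and 2161 CPM. Cyp4 genes together held 694 and 755 CPM in small intestine against 159 and 168 CPM in large intestine. Cyp3a genes held 135 and 151 CPM against 53.4 and 56.6 CPM. The large intestinal sections held more of the Cyp2 genes, 601 and 611 CPM against 243 and 256 CPM. They also held more of the glutathione S-transferases, with Gstm at 391 and 387 CPM against 86.4 and 102 CPM and Gsta at 84.9 and 87.1 CPM against 22.5 and 15.9 CPM. Sult genes differed less, at 463 and 465 CPM in small intestine and 629 and 634 CPM in large intestine, and Ugt2 genes stood at 270.2 and 287 against 225 and 216 CPM.

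Between the Visium tissues, 47 members reached 50 UMIs in at least 1 section. A gene was counted as higher when the lowest section of 1 tissue exceeded the highest section of the other by at least 2-fold. By this measure 11 members were higher in small intestine, against 10.6% of the 13838 features measured at this depth. Another 20 were higher in large intestine, against 10.2% of those features. Of these, Cyp2c23 became a member through the large intestinal sections alone, which leaves 19 others. The median log2 ratio of small over large intestine was −0.71 over the members and −0.03 over all features.

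**Figure D1:**
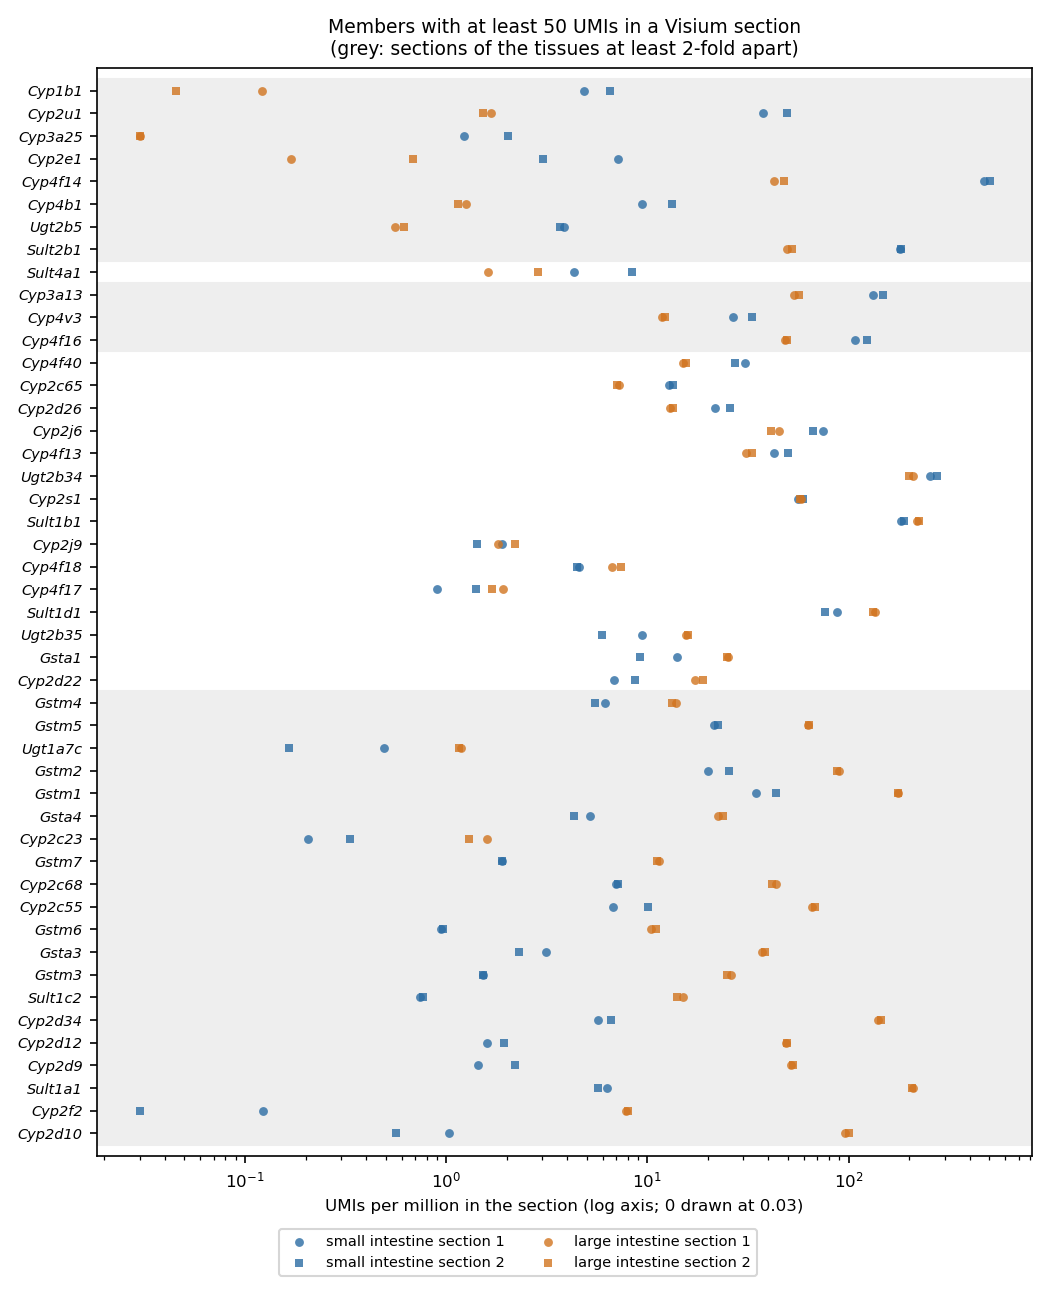
Level in each Visium section (CPM, log axis, 0 drawn at 0.03) of the 47 members with at least 50 UMIs in a section, in blue for small and orange for large intestine, with circles for section 1 and squares for section 2. Grey bands mark members whose tissues were at least 2-fold apart. Cyp4f14 lies at 472 and 502 CPM in small intestine against 42.4 and 47.8 CPM in large intestine, while the sections lie further apart for some low members such as Cyp2e1, at 0.170 and 0.684 CPM in large intestine.

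Among the P450 enzymes, Cyp4f14, a hydroxylase of leukotriene B4 and fatty acids, was the leading small intestinal member. Small intestinal sections had it at 472 and 502 CPM, large intestinal ones at 42.4 and 47.8 CPM, a log2 ratio of 3.43. Cyp2u1, a fatty acid hydroxylase, reached 37.7 and 49.2 CPM against 1.67 and 1.53 CPM (log2 ratio 4.76). The groups did not overlap for either gene. Cyp3a13, of the subfamily that oxidises a wide range of drugs, stood at 133 and 149 CPM against 53.4 and 56.6 CPM (1.36). Cyp4f16 was at 108 and 124 CPM against 48.2 and 49.2 CPM (1.25), and Cyp4v3, a fatty acid hydroxylase, at 26.7 and 33.2 CPM against 11.8 and 12.2 CPM (1.32). Lower in abundance were Cyp1b1 at 4.84 and 6.51 CPM against 0.121 and 0.0456 CPM, from 5 and 2 UMIs (6.09 as counted) and Cyp4b1 at 9.40 and 13.2 CPM against 1.26 and 1.14 CPM (3.23). Cyp2e1, which oxidises ethanol and small solvents, was at 7.14 and 3.02 CPM against 0.170 and 0.684 CPM (3.57), with the widest gap between small intestinal sections among the 34 members that reached 50 UMIs in both of them, 1.24 on the log2 scale. Cyp3a25 had 1.23 and 2.03 CPM in small intestine and no UMI in either large intestinal section. Its log2 ratio of 4.53 is a lower bound, taken against a floor of 3 UMIs.

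The P450 genes higher in large intestine included 4 genes of the Cyp2d cluster on chromosome 15. Cyp2d10 stood at 96.1 and 101 CPM in large intestine and 1.03 and 0.565 CPM in small intestine, a log2 ratio of −6.95. Cyp2d34 was at 140.3 and 145 CPM against 5.67 and 6.58 CPM (−4.54), and Cyp2d9 at 51.7 and 52.7 CPM against 1.44 and 2.19 CPM (−4.85). Cyp2d12 had 48.7 and 49.2 CPM against 1.60 and 1.93 CPM (−4.79). Cyp2d26, of the same cluster, leaned the other way, at 21.8 and 25.7 CPM in small and 12.9 and 13.4 CPM in large intestine (0.85). Cyp2f2, a lung-type P450, reached 7.83 and 8.05 CPM against 0.123 and 0 CPM, the former from 3 UMIs. Cyp2c55, a P450 that oxidises arachidonic acid, was at 66.2 and 67.9 CPM against 6.73 and 10.1 CPM (−2.99), and Cyp2c68 was at 43.7 and 41.7 CPM against 7.02 and 7.11 CPM (−2.59). Cyp2s1 was level between the tissues at 56.4 and 59.2 CPM against 57.9 and 57.7 CPM, a log2 ratio of 0.00.

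RefSeq promoter windows of GRCm38.p6, 250 bases before to 50 bases after a start site, were found for 57 of the 65 members. Windows of 3 Cyp2d genes are shown because Cyp2d9 and Cyp2d10 shared the large intestinal pattern and Cyp2d26 did not. Cyp2d9 lies on the plus strand at chr15:82452127-82452426, Cyp2d10 on the minus strand at chr15:82407145-82407444 and Cyp2d26 on the minus strand at chr15:82794196-82794495. All are written 5′ to 3′, and the capitals mark the longest run that Cyp2d9 and Cyp2d10 share, 51 bases.
Cyp2d9: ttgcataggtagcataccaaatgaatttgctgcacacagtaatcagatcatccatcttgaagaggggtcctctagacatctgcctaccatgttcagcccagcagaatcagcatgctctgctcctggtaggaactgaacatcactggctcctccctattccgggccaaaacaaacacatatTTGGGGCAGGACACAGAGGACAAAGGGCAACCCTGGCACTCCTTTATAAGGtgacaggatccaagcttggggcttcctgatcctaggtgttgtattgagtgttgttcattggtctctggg
Cyp2d10: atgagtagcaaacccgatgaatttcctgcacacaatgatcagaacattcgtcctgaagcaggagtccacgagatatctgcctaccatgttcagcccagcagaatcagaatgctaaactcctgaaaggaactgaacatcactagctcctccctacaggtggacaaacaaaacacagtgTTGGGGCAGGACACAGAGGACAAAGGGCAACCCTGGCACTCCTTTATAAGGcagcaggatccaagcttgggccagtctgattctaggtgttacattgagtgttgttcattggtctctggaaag
Cyp2d26: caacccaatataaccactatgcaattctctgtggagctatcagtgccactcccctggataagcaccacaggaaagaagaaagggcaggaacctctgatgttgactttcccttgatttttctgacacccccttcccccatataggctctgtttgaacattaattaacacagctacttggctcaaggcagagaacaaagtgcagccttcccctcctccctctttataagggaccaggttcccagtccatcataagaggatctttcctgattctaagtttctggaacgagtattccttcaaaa
The windows of Cyp2d9 and Cyp2d10 were 83.2% identical, while Cyp2d26 was 52.0% identical to Cyp2d9 and 53.3% to Cyp2d10. Pairs of Gstm windows, aligned in the same way, were 45.6 to 51.7% identical. Cyp2d12 and Cyp2d34, which also had the large intestinal pattern, had no window to compare. None of the 5 short motifs searched, given further below, was present in these 3 windows.

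Conjugating enzymes higher in small intestine were few. Sult2b1 reached 181 and 183 CPM in small intestine and 49.4 and 52.6 CPM in large intestine, a log2 ratio of 1.83. Ugt2b5 stood at 3.86 and 3.69 CPM against 0.557 and 0.616 CPM (2.69). Ugt2b34, the most abundant Ugt in the sections, differed less, at 255 and 276 CPM against 208 and 199 CPM (0.38).

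Large intestine held the higher level of most glutathione S-transferases and of Sult1a1. Sult1a1, which sulfates phenols and phenolic drugs, was at 208 and 206 CPM in large intestine and 6.28 and 5.68 CPM in small intestine, a log2 ratio of −5.11. Sult1c2 stood at 15.1 and 14.1 CPM against 0.739 and 0.764 CPM (−4.28). Sult1b1 was close to level at 182 and 189 CPM in small and 219 and 224 CPM in large intestine (−0.25). Gstm1 reached 177 and 176 CPM in large intestine against 34.5 and 43.8 CPM in small intestine (−2.17). Gstm2 had 89.4 and 88.1 against 20.0 and 25.6 CPM (−1.96), Gstm3 26.1 and 24.8 against 1.52 and 1.53 CPM (−4.06) and Gstm5 62.8 and 63.6 against 21.4 and 22.5 CPM (−1.52). Gstm4, Gstm6 and Gstm7 were also past 2-fold, with log2 ratios of −1.22, −3.49 and −2.58, so that all 7 Gstm genes were higher in the large intestinal sections. Gsta3 stood at 37.2 and 38.4 CPM against 3.12 and 2.29 CPM (−3.80) and Gsta4, which conjugates the lipid peroxidation product 4-hydroxynonenal, at 22.4 and 23.7 CPM against 5.21 and 4.32 CPM (−2.27). Between the 2 sections of a tissue, the median absolute log2 difference was 0.21 over 34 members in small intestine and 0.06 over 42 members in large intestine.

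In the sorted libraries the same question was put to epithelial-like cells, 1564 from the small and 4394 from the large intestine. Of 54 members with 50 UMIs in at least 1 tissue, 22 were at least 2-fold higher in small intestine, against 7.96% of 13613 features. In large intestine 15 were higher, against 15.2% of features. Of these, Cyp2c69 became a member through the sorted large intestinal library alone, which leaves 14 others. The median log2 ratio was 0.45 over the members and −0.30 over all features, and the latter was −0.06 with median-of-ratios scaling, which sets the typical gene ratio between libraries near 1. The share of all called features that were higher in small intestine was 34.3% as CPM and 47.1% under that scaling. The sort and the filter set the mix of cells in each library, so whole-epithelium values carry that mix.

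Drug-oxidising and glucuronidating genes that the sections hardly showed were measured well in the sorted small intestinal cells. Ugt2a3 had 1333 UMIs (29.4 CPM) in small intestine and none in large intestine, a log2 ratio of at least 10.09. Cyp3a11, the main drug-oxidising Cyp3a of mouse liver, was at 12.6 CPM against 0.0180 CPM, the latter from 2 UMIs (log2 ratio 9.46 as counted, interval 7.6 to 12.51). Cyp2b10, the classical target of CAR, had 6.61 CPM against no UMI, at least 7.94 on the log2 scale. In the small intestinal sections the same genes had 7 and 4 UMIs (Ugt2a3), 8 and 17 UMIs (Cyp3a11) and 2 and 3 UMIs (Cyp2b10). Gata4, a transcription factor known from the upper small intestine and absent from the ileum's distal end, differed in the same way. Its level was 26.3 CPM in the sorted small intestinal cells and 1.15 and 1.76 CPM in the small intestinal sections. The cluster that held 144 of the 201 sorted enterocyte-like cells had Fabp6 and Slc10a2, bile acid carrier genes known from the ileum, among its 10 leading genes. Both genes were also among the 10 leading genes of a colonocyte-like cluster of 170 sorted large intestinal cells. Whether the small intestinal samples came from different segments was not tested.

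Part of the large intestinal set was seen in sorted cells too. Sult1a1 was at 268 CPM in large intestine and 1.81 CPM in small intestine, a log2 ratio of −7.21 with an interval from −7.54 to −6.90. Cyp2d34 had 13.8 CPM against a single UMI, 0.0220 CPM. Cyp2d10 stood at 5.91 against 0.154 CPM (−5.26) and Cyp2c55 at 193 against 8.31 CPM (−4.53). Gstm1 was at 209.7 against 47.3 CPM (−2.15), Gstm5 at 115 against 43.9 CPM (−1.40) and Gsta3 at 33.9 against 4.43 CPM (−2.94). Only 3 of the 7 Gstm genes, Gstm1, Gstm2 and Gstm5, were past 2-fold toward large intestine here. Gstm4 (−0.38), Gstm6 (0.00), Gstm7 (−0.15) and Gsta4 (0.07) were not past 2-fold, and Gstm3 was opposite (1.28). Small intestinal cells were higher in Cyp4f14, at 155 against 13.8 CPM (3.48, interval 3.40 to 3.56). They were also higher in Cyp3a13, at 76.7 against 9.98 CPM (2.94), in Sult2b1, at 82.4 against 17.2 CPM (2.26), and in Cyp2d26, at 21.3 against 5.58 CPM (1.93). Sult1b1 and Cyp2s1, close to level in the sections, were past 2-fold toward small intestine in sorted cells. Sult1b1 was at 186 against 64.9 CPM (1.52) and Cyp2s1 at 18.8 against 6.04 CPM (1.64). Gsta1 was at 93.4 CPM against 9.14 CPM in large intestinal cells (3.35), although the sections had it at 14.1 and 9.17 CPM against 25.2 and 25.0 CPM in large intestine.

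**Figure D2:**
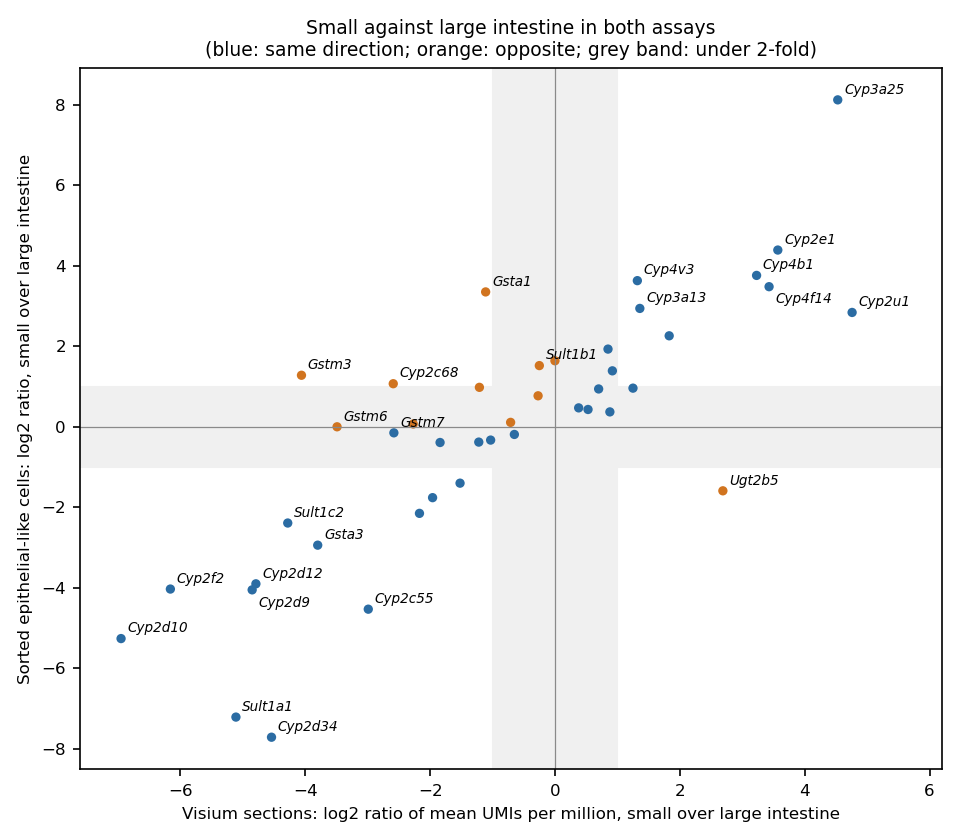
Log2 ratio of small over large intestine in the Visium sections (x axis) and in sorted epithelial-like cells (y axis), with 1 point per member that reached 50 UMIs in both assays, blue where the direction was the same and orange where it was opposite. Grey bands mark ratios under 2-fold. Cyp2d34, Cyp2d10 and Sult1a1 lie in the lower left corner, and Cyp2c68, Gstm3 and Ugt2b5 lie on opposite sides of 0 in the 2 assays.

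Past 2-fold in both assays were 8 genes higher in small intestine, of the 11 called in sections and the 22 called in sorted cells: Cyp2e1, Cyp2u1, Cyp3a13, Cyp3a25, Cyp4b1, Cyp4f14, Cyp4v3 and Sult2b1. For Cyp2e1 the sorted small intestinal epithelial-like cells held 60 UMIs, of which 1 lay in enterocyte-like cells. Another 12 were higher in large intestine in both, of 20 and 15: Cyp2c55, Cyp2d9, Cyp2d10, Cyp2d12, Cyp2d34, Cyp2f2, Gsta3, Gstm1, Gstm2, Gstm5, Sult1a1 and Sult1c2. Of the 12270 features measured in both assays, 4.41% were past 2-fold toward small intestine in both and 4.60% toward large intestine, and 0.880% were opposite. Opposite directions past 2-fold were found for 3 of the 43 members measured in both. Ugt2b5 was at 8.14 CPM in sorted cells of the small and 24.5 CPM in those of the large intestine (−1.59), Cyp2c68 at 19.5 against 9.27 CPM (1.07) and Gstm3 at 67.3 against 27.7 CPM (1.28).

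Other members were close to level or low. Cyp2j6, an epoxygenase of arachidonic acid and the Cyp2 gene with the most UMIs in small intestinal sections, was at 74.3 and 66.3 CPM there and 45 and 41.4 CPM in large intestine (0.70). Cyp4f13 was at 42.6 and 49.9 against 31.1 and 33.0 CPM (0.53). The Ugt1a genes, which include the bilirubin-conjugating Ugt1a1, summed to between 0.332 and 1.70 CPM in the sections, but to 12.7 and 14.6 CPM in sorted small and large intestinal cells and 22.4 CPM in both organoid libraries. Sult4a1, a brain sulfotransferase, was concentrated in the small intestinal region led by Gal and Nmu, at 92.0 and 116 CPM.

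Limiting the comparison to absorptive cells, 201 enterocyte-like against 364 colonocyte-like cells, left 48 members to compare. Of these 19 were at least 2-fold higher in enterocyte-like cells, against 10.4% of 8811 features, and 13 in colonocyte-like cells, against 16.1%. Cyp2c55 was at 1992 CPM in colonocyte-like and 63.9 CPM in enterocyte-like cells, a log2 ratio of −4.96. Sult1a1 was at 243 against 1.96 CPM (−6.96), and Cyp2d34 had 94.4 CPM against no UMI. Enterocyte-like cells held Cyp3a11 at 108 CPM, Ugt2a3 at 58.5 CPM and Cyp2b10 at 50.2 CPM, all with no UMI in colonocyte-like cells. Cyp4f14 was at 608 against 124 CPM (2.29), Cyp3a13 at 353 against 102 CPM (1.79), Gsta1 at 357 against 72.8 CPM (2.29) and Cyp2d26 at 103 against 11.0 CPM (3.24). Sult1b1 and Sult1d1 were alike in these cells, at 604 against 519 CPM (0.22) and 424 against 469.8 CPM (−0.15). Ugt2b5, opposite between the assays, was at 25.2 CPM in enterocyte-like and 13.5 CPM in colonocyte-like cells (0.90), the direction of the sections. Cyp2c68, at 42.8 against 64.0 CPM (−0.58), also had that direction, whereas Gstm3, at 216 against 32.4 CPM (2.74), lay further from it than in all epithelial-like cells.

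Position along the axis from the crypt base to the luminal surface was read from spot regions, clusters of spots made without the members and called here by their leading genes. A spot covers several cells. In small intestine the region with the highest villus tip markers, led by Slc28a2 and Ada (301 and 375 spots), was set against the region with the highest crypt markers, led by Defa35 and Defa34 (271 and 278 spots). Past 2-fold in both sections, 12 of 21 members were higher in the surface region, against 17.6% of 7969 features, and 2 in the crypt region, against 20.1%. The median log2 ratio was 1.49 over the members and −0.11 over all features.

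The surface genes of the small intestine belonged to both phases. Cyp4f14 was at 769 and 808 CPM in the surface region and 70.1 and 106 CPM in the crypt region (log2 ratios 3.45 and 2.94). Cyp3a13 stood at 213 and 269.7 CPM against 25.6 and 37.5 CPM (3.06 and 2.84), and Sult1b1 at 276 and 275 CPM against 21.2 and 35.2 CPM (3.71 and 2.97). Ugt2b34 was at 283 and 283 CPM against 90.5 and 113 CPM. The other members past 2-fold toward the surface were Sult2b1, Sult1d1, Cyp2c55, Cyp2c65, Cyp2d26, Cyp4f16, Cyp4v3 and Gsta1. Toward the crypt were Gstm2, at 37.6 and 46.1 CPM against 8.86 and 10.3 CPM, and Gstm1, at 41.3 and 40.4 CPM against 16.0 and 13.4 CPM. Muscle markers summed to 5163 CPM in that crypt region and 2298 CPM in the surface region, and Gstm1 reached 109 and 141 CPM in the muscle-marker region led by Cd59a and Rims1. Their part in the crypt values was not tested. The highest summed member level in the small intestine was in the region led by Nts and Pyy, 3055 and 3146 CPM, where Cyp4f14 stood at 933 and 944 CPM.

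**Figure D3:**
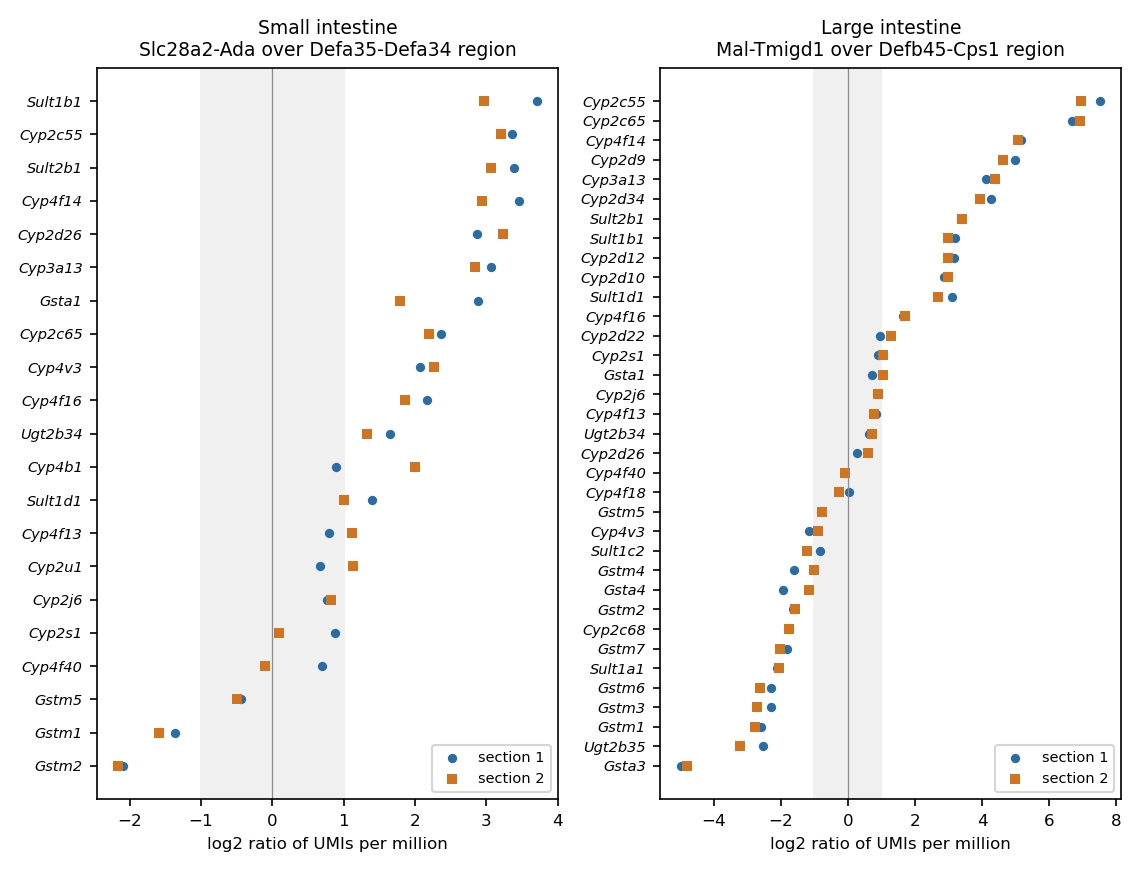
Log2 ratio of the surface over the crypt region for members with enough UMIs, in small (left) and large intestine (right), with blue circles for section 1, orange squares for section 2 and a grey band for ratios under 2-fold. Cyp2c55 (7.53 and 6.95) and Gsta3 (−4.97 and −4.80) mark the ends of the large intestinal range.

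In large intestine the region led by Mal and Tmigd1 (158 and 183 spots), highest in colon surface markers, was set against the region led by Defb45 and Cps1 (267 and 355 spots), highest in crypt markers. Of 35 members, 12 were higher at the surface, against 9.72% of 10260 features, and 11 in the crypt region, against 26.7%. The medians were 0.68 over members and −0.51 over all features. Crypt markers summed to no more than 366 CPM there. The region led by Dlk1 and Kcnh3, which was not compared, came close with 326 CPM. Ascl2, a stem cell factor, was among the 10 leading genes of the Defb45 and Cps1 region.

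Of the 35 members compared 18 were P450 genes, of which 9 were higher at the surface, 1 in the crypt region and 8 in neither. Of the 10 glutathione S-transferases 8 were higher in the crypt region, 0 at the surface and 2 in neither. Cyp2c55 was at 521 and 479.8 CPM at the surface and 2.82 and 3.88 CPM in the crypt region, log2 ratios of 7.53 and 6.95. Cyp2c65 had 48.8 and 45.5 CPM at the surface and 0 and 0.376 CPM in the crypt region. Cyp4f14 was at 201 and 211 CPM against 5.63 and 6.26 CPM (5.16 and 5.07) and Cyp3a13 at 149 and 149 CPM against 8.6 and 7.01 CPM. Cyp2d9, Cyp2d10, Cyp2d12 and Cyp2d34 were surface genes as well, with Cyp2d34 at 301 and 287 CPM against 15.5 and 18.8 CPM and Cyp2d9 at 114 and 114 CPM against 3.60 and 4.63 CPM. Cyp2d22 (0.96 and 1.30) and Cyp2d26 (0.28 and 0.60) were not past 2-fold in both sections. Sult1b1 was at 427 and 425 CPM against 46.3 and 53.1 CPM. Toward the crypt, Gsta3 was at 109.7 and 105 CPM against 3.49 and 3.75 CPM (−4.97 and −4.80) and Gstm1 at 354 and 343 CPM against 58.6 and 50.5 CPM (−2.60 and −2.77). Gstm3 had 48.2 and 45.5 CPM against 9.83 and 7.0 CPM, and Sult1a1 322 and 332 CPM against 73.5 and 79.5 CPM (−2.13 and −2.06). Gstm2, Gstm4, Gstm6, Gstm7, Gsta4, Ugt2b35 and the P450 gene Cyp2c68 were on the crypt side too, whereas Gstm5 (−0.79 and −0.77) and Gsta1 (0.73 and 1.06) did not pass 2-fold in both sections. Muscle markers were at 642 CPM in this crypt region and 345 CPM in the surface region.

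The 4 Cyp2d genes with the large intestinal pattern peaked together in a further surface-type region. It was led by Acta1 and Ifit3b (223 and 227 spots) and its colon surface markers summed to 10842 CPM, against 13608 CPM in the Mal and Tmigd1 region. There Cyp2d34 reached 354 and 351 CPM, Cyp2d10 336 and 328 CPM, Cyp2d12 218 and 203 CPM and Cyp2d9 186 and 175 CPM. The interferon-responsive genes Ifit3b, Ifit1bl1 and Ifit1bl2 were among the leading genes of that region.

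Outside the absorptive cells, some members had their highest level in other cell classes of the sorted libraries. Of the 46 members that could be ranked in the small intestine, 18 (39.1%) were highest in enterocyte-like cells, against 6.92% of 9778 features ranked in the same way. Another 5 (10.9%, against 12.0% of features) were highest in lymphatic endothelial-like cells, a class that the sort enriched (347 cells in small and 205 in large intestine). Colonocyte-like cells held the highest level of 16 of 43 members (37.2%) in the large intestine, against 7.31% of 10786 features. Classes were named from marker lists, and clusters without a name are described only where a result turns on them.

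The 5 members highest in lymphatic endothelial-like cells were Cyp1a1, Cyp1b1, Cyp2d22, Cyp4b1 and Sult1a1, a share near that of all features. Cyp2d22 was at 119 CPM (interval 101 to 139.9) there, which overlaps its 82.6 CPM (42.7 to 144) in blood endothelial-like cells, and in large intestine it was highest in blood endothelial-like cells, at 62.8 CPM (40.7 to 92.8) against 58.4 CPM (40.2 to 82.0). Cyp1b1, a target of the aryl hydrocarbon receptor that also metabolises steroids and retinoids, had 366 UMIs in 186 of 347 small intestinal lymphatic endothelial-like cells, 296 CPM with an interval from 267 to 328. Fibroblast-like cells had Cyp1b1 at 94.7 CPM, and neither enterocyte-like nor B-like cells had any UMI of it. Among the spot regions ranked, Cyp1b1 was highest in the muscle-marker region led by Cd59a and Rims1, at 20.6 and 24.4 CPM in the small intestinal sections. In the large intestine the lymphatic endothelial-like cells held 3 UMIs of Cyp1b1, 5.31 CPM with an interval from 1.10 to 15.5. Cyp1a1, the archetypal target of the same receptor, had 51 UMIs in 39 small intestinal lymphatic endothelial-like cells, 41.3 CPM with an interval from 30.7 to 54.3. Its 16 UMIs in enterocyte-like cells lay in 2 cells, and the large intestinal lymphatic endothelial-like cells held none, with an upper limit of 6.53 CPM. Cyp4b1, a fatty acid and xenobiotic hydroxylase, stood at 979.8 CPM in this class in small intestine and at 582 CPM in large intestine. Its level in B-like cells was 1.97 CPM in small intestine with 2 UMIs, and 0 in large intestine.

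The promoter windows of the 2 Cyp1 genes are shown because both are known targets of the aryl hydrocarbon receptor. Cyp1a1 lies on the plus strand at chr9:57697363-57697662 and Cyp1b1 on the minus strand at chr17:79715012-79715311. Capitals mark matches to the 5 motifs searched.
Cyp1a1: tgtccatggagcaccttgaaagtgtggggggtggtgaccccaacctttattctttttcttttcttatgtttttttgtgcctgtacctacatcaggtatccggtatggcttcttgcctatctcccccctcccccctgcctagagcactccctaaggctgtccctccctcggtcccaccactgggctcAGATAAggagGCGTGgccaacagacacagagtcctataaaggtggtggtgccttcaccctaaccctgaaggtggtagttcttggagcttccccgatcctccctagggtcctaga
Cyp1b1: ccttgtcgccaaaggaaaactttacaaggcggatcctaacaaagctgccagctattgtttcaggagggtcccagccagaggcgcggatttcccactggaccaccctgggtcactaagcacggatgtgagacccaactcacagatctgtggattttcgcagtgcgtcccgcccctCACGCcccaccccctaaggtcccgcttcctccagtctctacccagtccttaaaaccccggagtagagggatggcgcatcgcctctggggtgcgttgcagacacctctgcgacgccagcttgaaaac
Each window held 1 match to GCGTG, the core of the xenobiotic response element that the receptor binds, 54 bases before the start of Cyp1a1 and, on the opposite strand, 76 bases before that of Cyp1b1. Cyp1a1 also held AGATAA, the GATA motif. Among the 69 windows of members GCGTG was found in 27.5%, against 32.4% of all 32851 windows of this length. The match is thus common in windows of this length, and binding was not measured.

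**Figure D4:**
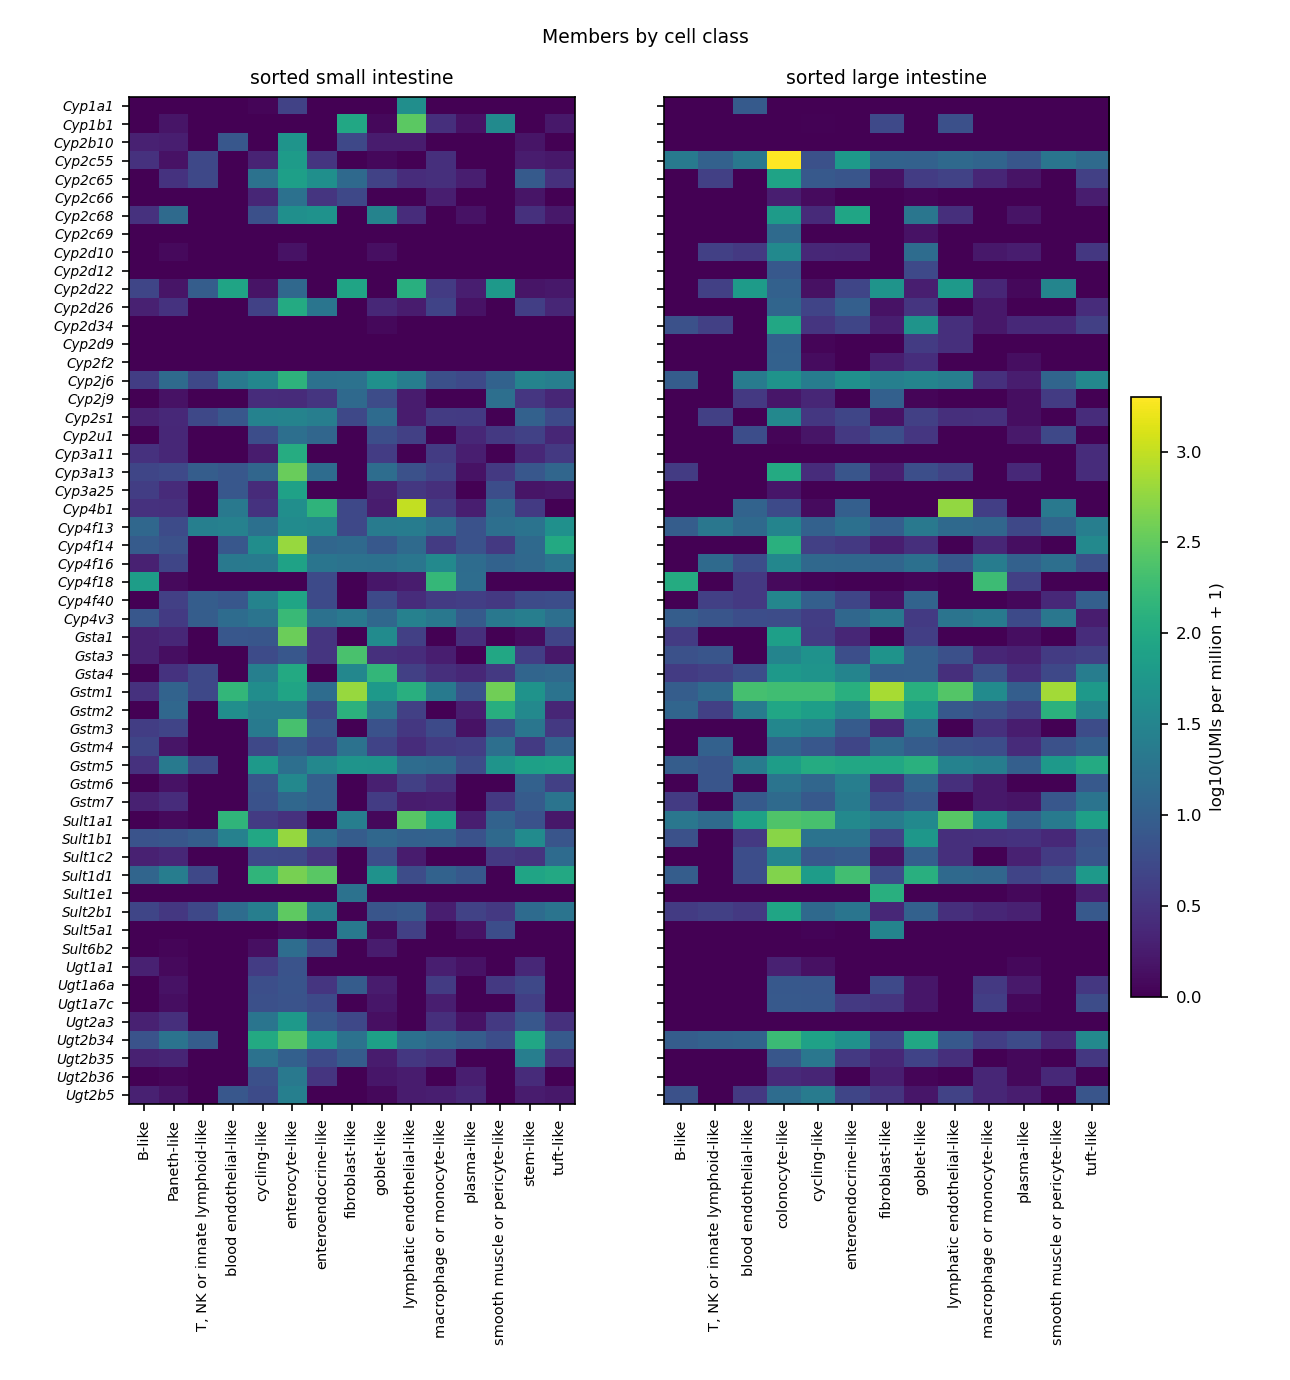
Level of members, as the base 10 logarithm of CPM plus 1 (colour), in each named cell class of the sorted small and large intestinal libraries. In lymphatic endothelial-like cells Cyp1b1 is at 296 CPM (small intestine) and 5.31 CPM (large intestine), and Cyp4b1 is at 979.8 and 582 CPM.

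Sult1a1 was found in lymphatic endothelial-like cells of both tissues and across much of the epithelium of the large intestine. In small intestine it had 344 UMIs in 189 of the lymphatic endothelial-like cells, 279 CPM, with 145 CPM in blood endothelial-like cells and 1.96 CPM in enterocyte-like cells. In large intestine the lymphatic endothelial-like cells had Sult1a1 at 273 CPM, but epithelial-like cells held 268 CPM on average. Colonocyte-like cells were at 243 CPM, cycling-like cells at 215 CPM, goblet-like cells at 35.5 CPM and the unnamed epithelial cluster led by Gsdmc2, Gsdmc3 and Hsd3b3 at 974 CPM. B-like cells had 19.3 CPM of Sult1a1 in large intestine, with 7 UMIs. After each cell was thinned to 2000 UMIs, 27.3% of large intestinal epithelial-like cells had a Sult1a1 UMI, against 0.466% of small intestinal ones and 4.67% of large intestinal B-like cells. Unthinned, these shares were 56.6%, 3.64% and 4.88%, at median depths of 25926, 26366 and 2644 UMIs.

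Several other members were high in stroma or immune cells. Cyp4f18, a leukotriene-inactivating hydroxylase of leukocytes, was at 157 and 180.4 CPM in macrophage or monocyte-like cells of small and large intestine and at 67.8 and 105 CPM in B-like cells. Gstm1 was highest in fibroblast-like cells, at 618 and 739 CPM. Sult1e1, which sulfates estrogens, had 274 UMIs in 13 large intestinal fibroblast-like cells, 68 of them in 1 cell. Gsta3 was at 222 CPM in small intestinal fibroblast-like cells and 48.9 CPM in large intestinal ones. Cyp2c68 was at 47.7 CPM (interval 29.6 to 73.0) in small intestinal enteroendocrine-like cells, which overlaps its 42.8 CPM (37.0 to 49.2) in enterocyte-like cells. In large intestine it was at 85.2 CPM (65.9 to 108) against 64.0 CPM (58.8 to 69.5) in colonocyte-like cells, and these intervals overlap too. In large intestine Cyp2c55 had 17403 UMIs in 244 of the 364 colonocyte-like cells, against 22.0 CPM in B-like cells, and its share of epithelial-like cells with a UMI after thinning was 8.30%, against 3.74% of B-like cells (22.3% and 5.69% unthinned).

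Cocultured organoids held more of these enzymes than control organoids. The summed level over analysed cells was 2222 CPM in 538 control cells and 3271 CPM in 1028 cocultured cells. The mix of cells differed as well. A cluster led by Ly6d, Sprr1a and Sprr2f held 82 of the control and 37 of the cocultured cells, and 1 led by Vstm2l, Rbp7 and Zfp2 held 8 and 57. The part of this mix in the summed level was not tested. Of 51 members with 50 UMIs in at least 1 library, 14 were at least 2-fold higher in coculture, against 1.71% of 12101 features, and 3 in the control, against 2.95%. The median log2 ratio of coculture over control was 0.57 over members and −0.10 over all features. With median-of-ratios scaling the latter was 0.02 and the member counts were 18 and 3. Under that scaling the share of all called features higher in coculture went from 36.7% to 46.2%.

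**Figure D5:**
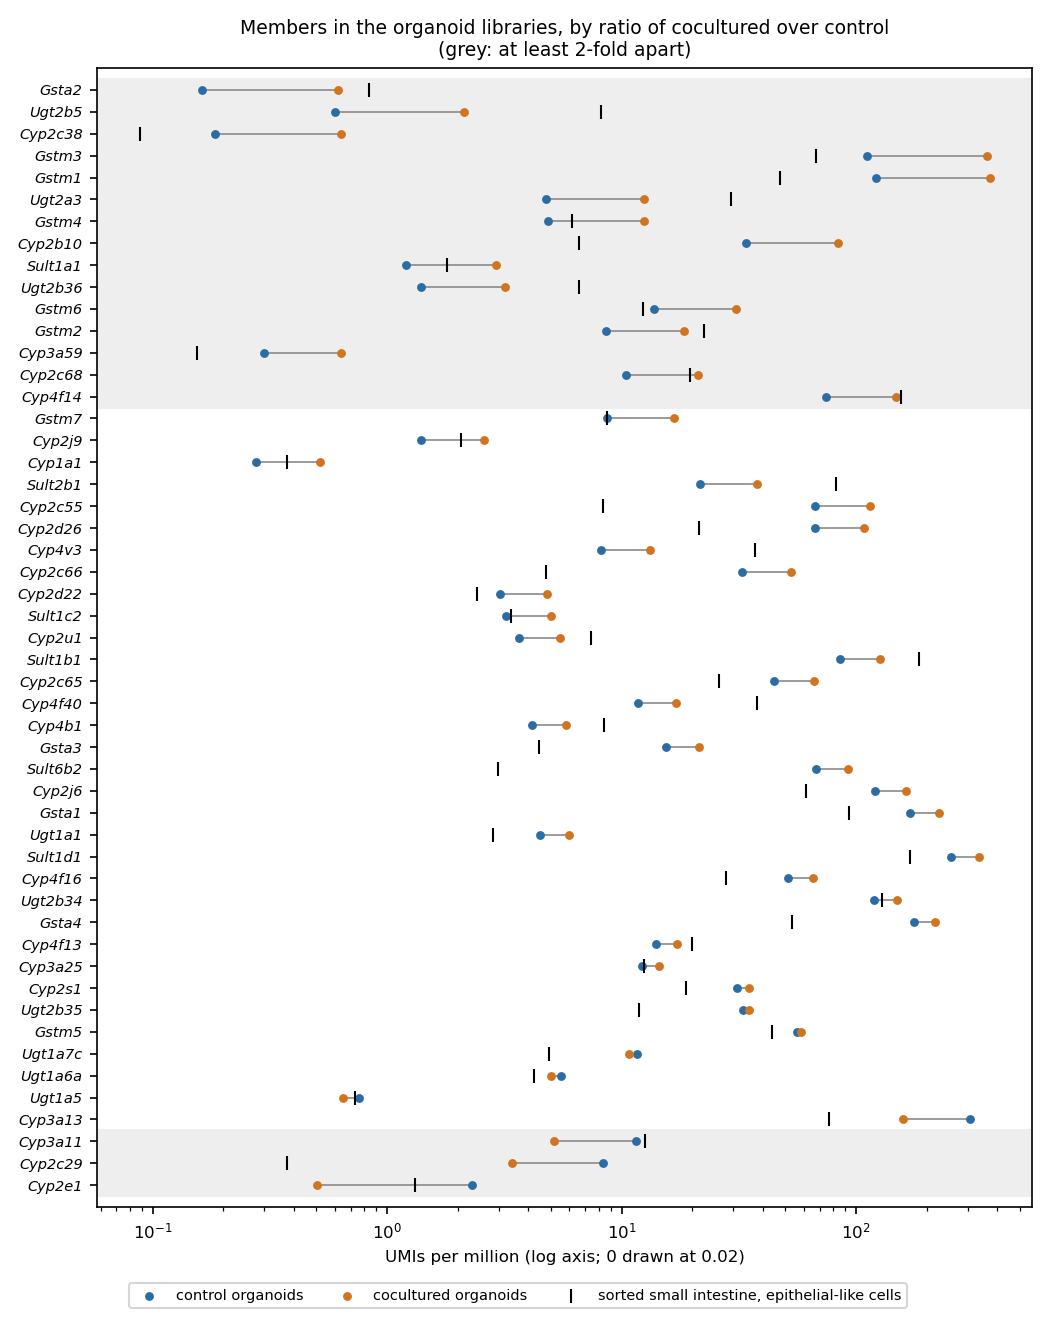
Level of the 51 members with at least 50 UMIs in an organoid library (CPM, log axis, 0 drawn at 0.02) in control (blue) and cocultured (orange) organoid cells, 1 library each, with black ticks for sorted small intestinal epithelial-like cells and grey bands for members at least 2-fold apart. Gstm1 and Gstm3 lie at 371 and 363 CPM in coculture against 122 and 111 CPM in the control, while Cyp3a13 lies at 159 against 306 CPM. The band at Cyp4f14 comes from rounding, since its ratio lay just under 2-fold.

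The Gstm genes made up most of the gain in glutathione S-transferases. Summed, they stood at 325 CPM in control and 869.9 CPM in cocultured organoids. Gstm1 was at 122 CPM in control and 371 CPM in coculture, a log2 ratio of 1.61 (interval 1.56 to 1.65), and Gstm3 at 111 and 363 CPM (1.71, 1.67 to 1.76). Gstm4 was at 4.88 and 12.5 CPM (1.36), Gstm6 at 13.8 and 30.7 CPM (1.15), Gstm2 at 8.6 and 18.4 CPM (1.09) and Gstm7 at 8.66 and 16.7 CPM (0.94). Gstm5, in the same gene cluster, was at 56.1 and 58.3 CPM (0.06, −0.01 to 0.12). No cell held more than 6.21% of the Gstm1 UMIs of the control or 2.25% of those of the coculture.

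Part of the Gstm difference was also seen within enterocyte-like cells, of which there were 51 in control and 172 in coculture. In these Gstm1 was at 554 CPM in control and 1611 CPM in coculture (1.54) and Gstm3 at 636 and 1509 CPM (1.25), while Gstm5 was at 35.9 and 46.3 CPM (0.37). Gstm2 (1.03) and Gstm4 (1.31) were past 2-fold there, but Gstm6 (0.86) and Gstm7 (0.81) were not. Cells of the cluster led by the S-phase genes Cdc6, Ung and Dtl had Gstm1 at 70.4 and 94.0 CPM, and cycling-like cells had it at 81.2 and 96.3 CPM. The 51 were 9.48% of the control library, with an interval from 7.14 to 12.3%, and the 172 were 16.7% of the cocultured one, from 14.5 to 19.2%. Among enterocyte-like cells alone, 8 of 45 members were at least 2-fold higher in coculture, against 1.39% of 8441 features, and 2 in the control, against 1.23%.

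Promoter windows of Gstm1, Gstm3 and Gstm5 are shown because the first 2 were higher in coculture and the last was level. Gstm1 (the window furthest upstream of 2) lies on the minus strand at chr3:108017924-108018223, Gstm3 on the minus strand at chr3:107969125-107969424 and Gstm5 on the plus strand at chr3:107895604-107895903. Capitals mark matches to the motifs searched on both strands.
Gstm1: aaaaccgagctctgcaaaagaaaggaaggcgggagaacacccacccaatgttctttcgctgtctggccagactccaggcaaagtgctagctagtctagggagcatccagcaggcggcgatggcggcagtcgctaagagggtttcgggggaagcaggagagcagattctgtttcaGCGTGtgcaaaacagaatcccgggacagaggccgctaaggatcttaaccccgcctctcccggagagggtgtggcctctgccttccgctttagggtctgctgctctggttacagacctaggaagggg
Gstm3: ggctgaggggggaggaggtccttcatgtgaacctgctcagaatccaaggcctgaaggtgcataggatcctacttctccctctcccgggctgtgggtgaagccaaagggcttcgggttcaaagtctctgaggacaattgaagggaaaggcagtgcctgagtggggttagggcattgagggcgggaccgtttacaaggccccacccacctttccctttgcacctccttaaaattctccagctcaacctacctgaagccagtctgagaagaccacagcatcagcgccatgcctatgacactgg
Gstm5: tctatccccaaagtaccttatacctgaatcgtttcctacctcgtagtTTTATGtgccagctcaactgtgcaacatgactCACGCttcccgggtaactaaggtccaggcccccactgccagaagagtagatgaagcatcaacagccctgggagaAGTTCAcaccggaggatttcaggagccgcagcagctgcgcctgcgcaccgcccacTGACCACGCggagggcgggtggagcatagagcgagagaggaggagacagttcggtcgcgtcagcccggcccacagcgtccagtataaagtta
The Gstm1 window held 1 GCGTG and the Gstm3 window no match. The Gstm5 window held 5 matches, GCGTG at 2 places, the antioxidant response element TGACNNNGC, the nuclear receptor half-site TGAACT and the caudal homeobox motif TTTATG, and 1 of the GCGTG matches lies on the opposite strand inside the TGACNNNGC match. Over all member windows the shares were 11.6% for TGACNNNGC against 12.4% of all windows, 13.0% against 14% for TGAACT, 5.8% against 11.9% for TTTATG and 20.3% against 11.2% for AGATAA.

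Among the other families, Cyp2b10 was at 34.1 CPM in control and 84.1 CPM in coculture (1.30), Ugt2a3 at 4.78 and 12.5 CPM (1.38), Ugt2b5 at 0.601 and 2.13 CPM (1.83) and Sult1a1 at 1.2 and 2.92 CPM (1.28). Cyp4f14, at 74.3 and 148 CPM, lay just under 2-fold. The other members past 2-fold toward coculture were Gsta2, Cyp2c38, Ugt2b36, Cyp3a59 and Cyp2c68, with log2 ratios of 1.94, 1.79, 1.2, 1.09 and 1.01. Gsta2, Cyp2c38 and Cyp3a59 reached the 50 UMIs of the rule in the cocultured library alone, so they were chosen through the group in which they were higher. Apart from these 3, 11 members were past 2-fold toward coculture. Within enterocyte-like cells several of these were under 2-fold, with Cyp2b10 at 336 CPM in control and 493 CPM in coculture (0.55), Cyp2c68 at 68.0 and 85.2 CPM (0.33) and Ugt2a3 at 21.3 and 41.7 CPM (0.97). Cyp4f14 was at 487 and 665 CPM there (0.45). In all cells Gsta1 and Gsta4 stayed under 2-fold, at 169.8 and 227 CPM and at 177 and 218 CPM. Cyp3a13 was the abundant member with the opposite direction, at 306 CPM in control and 159 CPM in coculture (−0.95, interval −0.98 to −0.91), just under 2-fold. In enterocyte-like cells it was at 1127 and 573 CPM (−0.98). For the 3 members past 2-fold toward the control, 1 cell held a large part of the UMIs. Of 100 Cyp2e1 UMIs in the control, 92 lay in 1 cell. For Cyp2c29 it was 155 of 362 UMIs, and for Cyp3a11 147 of 499. Without the cell that held the most UMIs of each gene, 0 members were past 2-fold toward the control over all cells. Within enterocyte-like cells Cyp2c29 was at 88.8 CPM in control and 18.1 CPM in coculture (−2.30) and Cyp3a11 at 112 and 31.5 CPM (−1.84). Leaving out that cell in each library, the ratios in this class were −1.74 and −1.55, still past 2-fold, and Cyp2e1 had no UMI in it. UMIs of Cyp2c29 lay in 18 and those of Cyp3a11 in 15 of the 51 control cells of the class.

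Control organoids were also set against the small intestinal epithelial-like cells, to show how culture and tissue differ in these genes. Library, culture and sort cannot be told apart in this comparison. Of 46 members, 12 were higher in control organoids, against 11.9% of 12248 features, and 11 in tissue, against 14.3%. For the cocultured organoids 22 of 51 were higher in culture, against 10.9% of 12617 features, and 8 in tissue, against 16.2%. Of the 22, Cyp2c38 and Cyp3a59 became members through the cocultured library alone, which leaves 20 others. Both comparisons use the same tissue library.

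Sult6b2, several Cyp2c genes, Cyp2b10 and Cyp3a13 were among the members higher in organoids. Sult6b2 was at 67.3 CPM in control organoids, 92.0 CPM in cocultured organoids and 2.98 CPM in tissue. Cyp2c55 was at 66.8 CPM in control organoids and 8.31 CPM in tissue (3.01), Cyp2b10 at 34.1 against 6.61 CPM (2.37) and Cyp3a13 at 306 against 76.7 CPM (2.0). Gsta4 was at 177 against 53.2 CPM (1.73). Cyp3a11 (−0.13) and Cyp3a25 (−0.05) were close to level, and Cyp2u1 (−1.01) was higher in tissue. On the tissue side were Ugt2a3, at 29.4 CPM against 4.78 CPM in control organoids (−2.62), Sult2b1, at 82.4 against 21.6 CPM (−1.93), and Sult1b1, at 186 against 85.4 CPM (−1.13). Ugt2b5, Ugt2b36, Cyp4v3 and Cyp4f40 were higher in tissue too, with log2 ratios of −3.76, −2.25, −2.18 and −1.68. Restricted to enterocyte-like cells of both, 21 of 40 members were higher in control organoids, against 8.79% of 6994 features, and 6 in tissue, against 13.3%, and Gstm2 went from −1.39 to 0.12. In these cells 4 other members were no longer past 2-fold toward tissue, Sult1b1 (−0.39), Cyp2u1 (−0.30), Cyp4f14 (−0.32, from −1.06) and Cyp4b1 (−0.92, from −1.01).

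Genes around these enzymes were read from 5 lists of regulators, cofactor supply, other oxidising and hydrolysing enzymes, other conjugating enzymes and transporters. All features past 2-fold, given above or in parentheses beside a list, were in sections 10.6% toward small and 10.2% toward large intestine, and in sorted cells 7.96% and 15.2%. Of 15 regulators measured in sections, 4 were higher in small and 1 in large intestine, as were 4 and 1 of 16 in sorted cells. The medians of the list were 0.27 and 0.55, against −0.03 and −0.30 over all features. Against tissue, 0 of 16 regulators were higher in control organoids (11.9% of features) and 4 were lower (14.3%), with a list median of −0.10 against 0.11. Ahr stood at 5.99 and 7.48 CPM in small and 12.5 and 12.5 CPM in large intestinal sections (−0.89), and Nr1i2 at 37.4 and 41.0 against 27.1 and 30.3 CPM (0.45), neither past 2-fold. Nr1i3 had 13.8 CPM in sorted cells of the small and 0.360 CPM in those of the large intestine (5.26), and it was the 1 regulator past 2-fold in coculture, at 11.1 against 5.29 CPM (1.07). Hnf4g was higher in small intestine in both assays (2.17 in sections and 1.70 in sorted cells).

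Transporters leaned toward the small intestine. Of 16 in sections 7 were higher in small (10.6% of features) and 1 in large intestine (10.2%), and of 15 in sorted cells 8 (7.96%) and 1 (15.2%). The median log2 ratios of the list were 0.89 and 1.33, against −0.03 and −0.30 over all features. Abcc2, an apical exporter of glucuronide and glutathione conjugates, was at 16.7 and 24.7 CPM in small and 0.848 and 0.913 CPM in large intestinal sections (4.55), and Slc22a4, an uptake carrier, at 9.77 and 10.5 against 0.170 and 0.228 CPM (5.67). Other phase I enzymes split, with 6 of 34 higher in small and 16 in large intestinal sections but 13 and 6 of 35 in sorted cells, against the same shares of features. In coculture 7 of 32 of them were higher (1.71% of features) and 0 lower (2.95%), with a list median of 0.76 against −0.10. Of 18 other conjugating enzymes in sections, 2 were higher in small and 8 in large intestine, and among them Nat8 stood at 35.4 and 48.7 CPM against 0.0970 and 0.160 CPM (8.36). In sorted cells 1 of 17 was higher in small and 0 in large intestine, with a list median of 0.04. Of 13 cofactor genes, 1 was past 2-fold in sections, toward small intestine, while in sorted cells 1 was higher in small and 4 in large intestine. Between the organoids 0 were past 2-fold, and 3 and 5 were higher in control and cocultured organoids than in tissue (11.9% and 10.9% of features). Por was at 225 CPM in control organoids, 202 CPM in cocultured organoids and 34.6 CPM in tissue cells.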

How the data were processed

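Single-cell RNA sequencing was done on 4 samples and Visium spatial transcriptomics on 4 sections. The deposited UMI counts per gene and barcode are whole-number count matrices made by the authors with Cell Ranger 6.0.1 (single cells) and Space Ranger 1.2.1 (Visium), per the file headers, on mm10, per the submitters' processing notes. The annotation release is not given in the sources used here. A gene enters by its deposited total in any library.

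The members and lists were chosen with earlier results of these data known. Cells needed at least 500 detected genes and at most 20% mitochondrial UMIs, and spots at least 500 UMIs. The highest Scrublet scores, 0.8% per 1000 cells, were removed as doublets. The 2 organoid libraries together, each sorted library, and both sections of a tissue together were clustered with scanpy 1.11.5 and leidenalg 0.10.2 (2000 variable genes, 30 components, 15 neighbours, resolution 1 for cells and 0.5 for spots), without members, list genes, mitochondrial, ribosomal protein and sex-linked genes. A class was named when at least 3 and 50% of its markers were at least 1 log2 unit higher and detected in 10% of cells. Epithelial-like cells were clusters above 3000 CPM of pan-epithelial markers, or Paneth-like ones, a choice made after seeing the values.

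Levels (CPM) are summed UMIs of a gene per 1000000 summed UMIs. Organoid levels use all kept cells, section levels all kept spots. Ratios used a floor of 3 UMIs per group, and a feature entered with at least 50 UMIs in at least 1 group or section. Poisson, binomial and Clopper-Pearson-based ratio intervals are exact and 95% wide (scipy 1.17.1). The calling step was checked on simulated counts. Named genes are members, led by the 10 highest and 10 lowest ratios of each comparison, and in each list the 3 highest and 3 lowest plus genes with at least 50 UMIs. Alternatives covered scaling, filters, doublets, floors, cluster resolution, cell selection and left-out sections. The comparisons among absorptive cells and among enterocyte-like organoid cells, with and without the cell of most UMIs, the leaving out of Paneth-like cells and a scaling without defensin genes were added after seeing the data. Some results are not reported here.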

Additional observations from a re-analysis of the deposited data

How the results depend on the processing

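No paired analysis was possible because each single-cell group holds 1 library, the sections of a tissue are technical duplicates, and no result comes from a test. Counts of members higher in small intestinal sections went from 11 to 7 when 200 UMIs were required, since fewer genes entered. Leaving out 1 section gave 10 to 12 members higher in small and 19 to 22 in large intestine. In regions it gave 11 to 14 and 2 to 2 for small intestinal surface and crypt, and 12 to 15 and 12 to 12 for large intestinal surface and crypt. At spot resolution 0.3, 4 rather than 2 members were higher in the small intestinal crypt region, and the cause was not tested. Without the cell with the most UMIs of each gene, the 3 members higher in control organoids became 0, but among enterocyte-like cells 2 were past 2-fold with that cell left out. Between the organoid libraries, using enterocyte-like cells gave 8 rather than 14 members higher in coculture. Between control organoids and tissue, using enterocyte-like cells of both gave 21 rather than 12 members higher in organoids and 6 rather than 11 in tissue, and Gstm2 turned from −1.39 to 0.12. The cause was not tested beyond the choice of cells. All other counts run stayed within 1.5 times the value reported. The totals of the Ugt1a genes and of Cyp1a1 stayed low in sections, which limits what can be read there. The cause was not tested.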
